A study of Mus musculus with 12 samples.

Results

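The genes described here are the interferon response and the class I antigen presentation machinery, followed through osteoblast differentiation in culture. The list had 35 genes. Rows of the array table were taken as members when the gene symbol of their probe, current or older, was on the list. This gave 32 genes on 33 of the 17504 rows, out of 12817 genes named in the table, and Usp18 had 2 probes. H2-K1, Ifi35 and Bst2 had no named row, so their expression is not analysed here. The 32 measured genes comprised 7 class I and presentation genes (H2-D1, H2-Q7, H2-T23, B2m, Tap1, Tap2 and Tapbp), 3 immunoproteasome subunits (Psmb8, Psmb9 and Psmb10) and 10 antiviral genes called Isg15-type below (Isg15, Rtp4, Ifit1, Ifit2, Ifit3, Ifih1, Ifitm3, Mx1, Oasl2 and Usp18). The others were 4 GTPases (Ifi47, Gbp2, Igtp and Irgm1), 5 transcription factors (Irf1, Irf3, Irf7, Irf9 and Stat2) and 3 receptor chains (Ifngr1, Ifnar1 and Ifnar2).

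MC3T3-E1 is a line of mouse preosteoblasts from newborn skull bone. It was grown with glycerol phosphate and ascorbic acid, the additions that lead it to mineralize, and RNA was taken at 4 times. Per the labels these were Day 2 (log phase growth), Day 5 (growth arrest), Day 10 (differentiating cells) and Day 28 (mature osteoblasts), with 3 arrays for each. All groups were the same clonal line with the same additions, no array held cells without them, and age in culture and differentiation therefore cannot be told apart. Each array set the cells, in Cy3, against a commercial mouse reference RNA, in Cy5. The replicates were numbered without a statement that they were separate cultures, so a p-value here speaks of array-to-array spread only, which may be technical.

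Class I molecules show peptides from inside the cell to cytotoxic T cells. The heavy chains (H2-D1, H2-K1 and the non-classical H2-Q7 and H2-T23) pair with B2m, the peptides are cut by the proteasome and its interferon-inducible subunits, and Tap1, Tap2 and Tapbp bring them to the heavy chain. Interferons raise both this machinery and the antiviral genes, type I interferon through Ifnar1 and Ifnar2 and a complex that holds Stat2 and Irf9, interferon gamma through Ifngr1 and Irf1. The class I genes also have a basal level in most cell types, which depends on further promoter elements such as kB sites, whereas Isg15-type genes depend more strictly on the interferon-stimulated response element (ISRE). The comparison of interest was therefore whether both classes followed the same course over the 4 days.

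The promoters of members that passed a test are shown because the ISRE and the kB element are the sequence features in which these genes are known to differ. The stretches below are the 200 bases before the RefSeq transcription start in assembly GRCm38.p6, 5′ to 3′ on the gene's strand, and capitals mark matches on either strand to the core bound by interferon regulatory factors, AANNGAAA.
H2-D1 (chr17:35262894-35263093, plus strand): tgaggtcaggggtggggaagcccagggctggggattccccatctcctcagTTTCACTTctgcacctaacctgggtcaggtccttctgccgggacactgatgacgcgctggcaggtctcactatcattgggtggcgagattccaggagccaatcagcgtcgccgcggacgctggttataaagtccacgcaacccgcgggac
H2-Q7 (chr17:35438955-35439154, plus strand): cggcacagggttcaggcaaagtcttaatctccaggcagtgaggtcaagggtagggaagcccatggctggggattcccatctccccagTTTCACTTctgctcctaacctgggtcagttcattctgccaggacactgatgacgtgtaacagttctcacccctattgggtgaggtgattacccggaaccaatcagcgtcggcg
B2m (chr2:122147487-122147686, plus strand): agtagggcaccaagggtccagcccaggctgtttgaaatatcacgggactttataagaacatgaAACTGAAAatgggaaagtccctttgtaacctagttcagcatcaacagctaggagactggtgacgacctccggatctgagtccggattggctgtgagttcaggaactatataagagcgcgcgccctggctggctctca
Psmb9 (chr17:34187331-34187530, minus strand): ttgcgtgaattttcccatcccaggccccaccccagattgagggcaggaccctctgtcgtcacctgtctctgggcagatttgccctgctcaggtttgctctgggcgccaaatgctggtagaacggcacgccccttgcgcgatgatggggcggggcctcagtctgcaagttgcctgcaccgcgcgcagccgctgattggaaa
Isg15 (chr4:156200819-156201018, minus strand): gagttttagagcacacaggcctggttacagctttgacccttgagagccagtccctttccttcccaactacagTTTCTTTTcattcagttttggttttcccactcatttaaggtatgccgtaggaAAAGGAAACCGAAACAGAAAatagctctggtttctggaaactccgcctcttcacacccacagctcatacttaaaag
Ifi47 (chr11:49076387-49076586, plus strand): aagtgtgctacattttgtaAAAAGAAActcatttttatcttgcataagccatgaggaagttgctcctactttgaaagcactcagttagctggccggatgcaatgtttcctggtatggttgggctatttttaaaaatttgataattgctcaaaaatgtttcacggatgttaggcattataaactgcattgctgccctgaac

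The motifs were searched on both strands of the window that runs from 250 bases before the start to 50 bases after it, which was given for 31 of the 35 listed genes (none for Tap2, Rtp4, Mx1 and Usp18). Promoter counts are therefore over listed genes with a window, and include H2-K1 among 7 class I genes and Ifi35 and Bst2 among 9 Isg15-type genes. A match to a strict form of the ISRE (GAAA, 2 free bases, GAAA) was found in 12 of the 31 genes (38.7%), against 3.99% of all 27025 genes with a window. It was in 6 of 9 Isg15-type genes, in 3 of 4 GTPases and in 2 of 7 class I genes (B2m and H2-T23). Isg15 had 3 overlapping ISRE matches between positions -78 and -57, B2m had 1 at -139 to -130, and none was found for H2-D1, H2-Q7, Psmb9 or Ifi47. An ISRE that departs from these letters is not counted, so a gene without a match may still have one. The shorter core, AANNGAAA, which every ISRE match also contains, was in 5 of 7 class I genes, in 7 of 9 Isg15-type genes and in all 4 GTPases, against 26.7% of all genes. H2-D1 had it at -150 to -143 and H2-Q7 at -113 to -106, in both as the letters TTTCACTT. The kB motif (GGGA, 4 free bases, CC) was in 4 of 7 class I genes and in 2 of 9 Isg15-type genes, against 22.9% of all genes. In H2-D1 it lay at -171 to -162, in H2-Q7 at -133 to -124 and in B2m at -127 to -118, within 30 bases of the core in each of them. H2-K1, without a measured row, was the other class I gene with it. No kB match was found for H2-T23, Psmb9, Isg15 or Ifi47. The motif was in 0 of 3 immunoproteasome genes and in 1 of 4 GTPases. Whether a motif goes with a change over the days was not tested. The STAT motif TTCNNNGAA was in 0 of 7 class I genes and in 4 of 9 Isg15-type genes (Ifi35 and Bst2 among them), against 9.55% of all genes. Matches are letters in a window and were not tested for binding, and the genes were listed for being interferon-related.

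The deposited values were read as log2 of cells over reference. The labels do not state the direction. It is likely from cell type markers. Markers of mesenchymal cells and osteoblasts averaged 2.19 ± 1.89 over the 12 arrays (SD over 10 genes) and 9 of them lay above 0, while 13 markers of macrophages and other blood cells averaged -1.29 ± 1.13 and 1 lay above 0. The 5 endothelial markers lay near 0, with a mean of 0.10 ± 0.39 and 3 above 0. Were it the other way round, every direction below would turn. A value compares a gene with its own level in the reference, so values of different genes have no common level scale. The dyes were never exchanged. A dye effect of a probe drops out of differences between days only if it was the same on every array, which was not tested. The osteoblast markers Sparc and Dmp1 were higher on Day 28 than on Day 2, Dmp1 by 2.52 on the log2 scale with a limma adjusted p of 9.6e-05. Of the 10 mesenchymal and osteoblast markers measured, only these 2 passed between those days, or 20%, against 5.69% of all rows. All 10 had a difference above 0, among them Phex (0.08), Col1a1 (0.17) and Ibsp (1.56), which did not pass. Replicate 3 of Day 10 and replicate 2 of Day 5 stood apart from the other arrays. Their mean correlation with the other arrays of their day, over all rows, was 0.795 and 0.838, against 0.856 to 0.919 for the other 10 arrays. For some members, results without both of them are given where a call changed.

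Changes were tested with limma on all 12 arrays, 1 mean per day. The Benjamini-Hochberg adjustment covered all 17504 rows, and a call needed an adjusted p under 0.05. A difference is a later day minus an earlier one on the log2 scale, and SE is its standard error in the fit. Of the 32 genes, 6 passed the F test for any change over the 4 days (H2-D1, H2-Q7, B2m, Isg15, Rtp4 and Ifi47), against 5.32% of all rows. Between Day 28 and Day 2, 5 genes rose (H2-D1, H2-Q7, B2m, Psmb9 and Ifi47), or 15.6%, against 3.68% of all rows. Isg15 fell, 1 gene or 3.12%, against 2.01% of all rows, and both directions together made 18.8% of the members and 5.69% of all rows. Between Day 10 and Day 5, 2 genes fell (Isg15 and Rtp4), or 6.25%, against 0.0286% of all rows that fell and 0.149% that changed in either direction. From Day 10 to Day 28, 1 gene rose (Ifi47), or 3.12%, against 0.708% of all rows that rose and 0.84% in either direction. Between Day 5 and Day 2 limma called 0 members, against 0.337% of all rows, and 4 members (12.5%) had an unadjusted p under 0.05 (Rtp4, Ifitm3, Irf7 and Stat2), against 10.1% of all rows. These are RNA levels of whole cultures, in which fewer cells expressing a gene and less RNA per cell cannot be told apart.

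**Figure D1:**
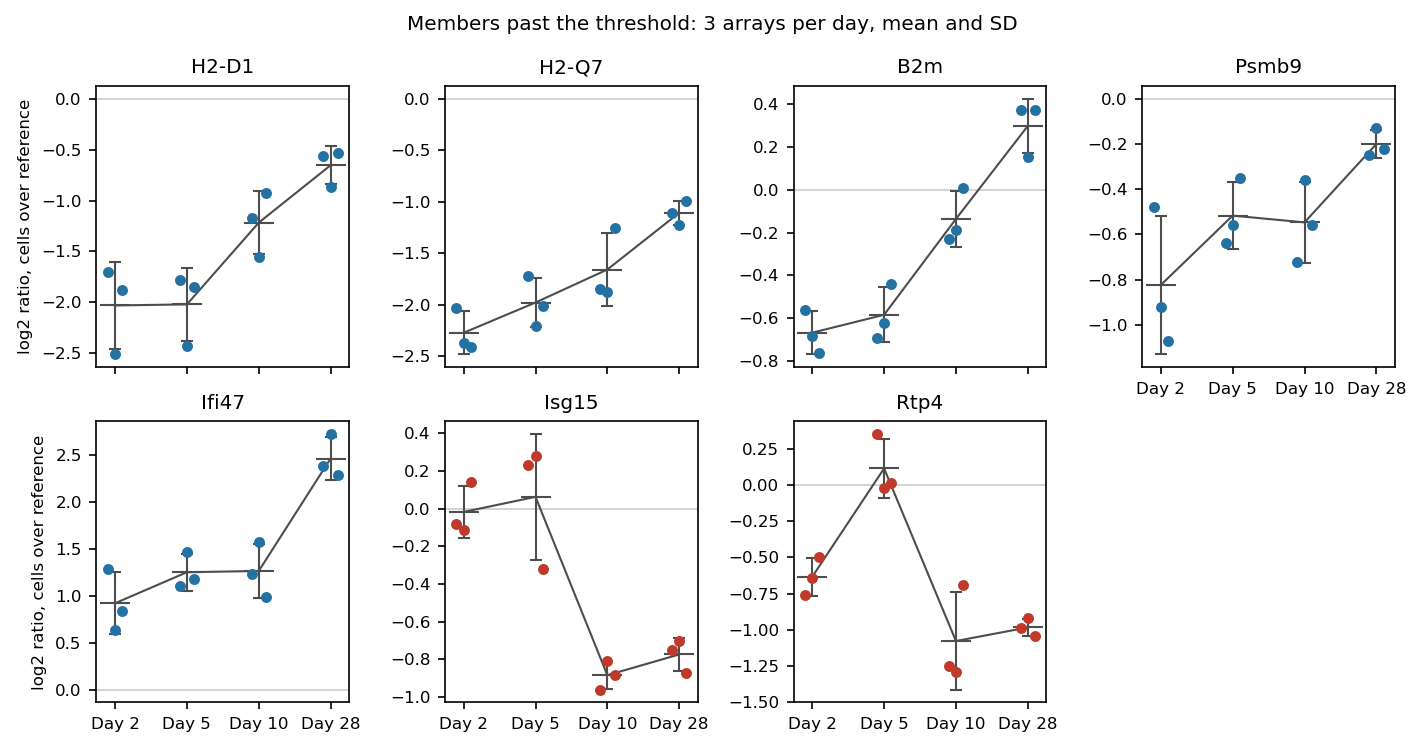
Log2 ratio of cells over reference (vertical axis, its own range in each panel) for the 7 members that passed a test, with 1 point per array at Day 2, Day 5, Day 10 and Day 28 (horizontal axis, evenly spaced and not to scale in time). Bars give the mean and SD of 3 arrays; H2-D1, H2-Q7, B2m, Psmb9 and Ifi47, in blue, are highest on Day 28, and Isg15 and Rtp4, in red, drop between Day 5 and Day 10.

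The heavy chain H2-D1, the classical class I molecule with a measured row, was higher in mature osteoblasts. Its log2 ratios on the 3 arrays were -1.70, -2.51 and -1.88 on Day 2, -1.78, -2.43 and -1.85 on Day 5, -1.17, -1.55 and -0.93 on Day 10, then -0.56, -0.87 and -0.53 on Day 28. The means of Day 5 and Day 2 were 0.01 apart, and all arrays of Day 28 lay above all arrays of every earlier day. Day 28 averaged -0.65 ± 0.19 and Day 2 averaged -2.03 ± 0.43 (SD, n = 3 each), a rise of 1.38 (SE 0.24) or 2.6-fold, with a limma adjusted p of 0.00332. The step between Day 10 and Day 5 was 0.80 and that between Day 28 and Day 10 was 0.56, and neither passed on its own (adjusted p = 0.28 and 0.406 by limma).

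The non-classical heavy chain H2-Q7, of the Qa family, followed a similar course. It measured -2.03, -2.37 and -2.41 on Day 2, -1.72, -2.20 and -2.01 on Day 5, -1.85, -1.87 and -1.25 on Day 10, with -1.11, -1.22 and -0.99 on Day 28. Day 28 did not overlap with any earlier day, while Day 5 and Day 10 overlapped. The mean was -1.10 ± 0.12 on Day 28 and -2.27 ± 0.21 on Day 2 (SD, n = 3 each), a rise of 1.16 (SE 0.19) or 2.24-fold with a limma adjusted p of 0.0022. The difference of Day 28 from Day 10 was 0.55 (adjusted p = 0.276 by limma), and it was 0.76 with an adjusted p of 0.0389 once both arrays that stood apart were left out. Class I heavy chain genes are close in sequence, and cross-hybridization between their probes was not tested.

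B2m, the light chain shared by all class I molecules, rose by less, with a narrower spread between arrays. Its values were -0.56, -0.68 and -0.76 on Day 2, -0.69, -0.62 and -0.44 on Day 5, -0.23, -0.19 and 0.01 on Day 10, with 0.37, 0.15 and 0.37 on Day 28. The arrays of Day 10 lay above those of both earlier days, and the arrays of Day 28 lay above those of Day 10. Day 28 averaged 0.30 ± 0.12 and Day 2 averaged -0.67 ± 0.10 (SD, n = 3 each), a rise of 0.97 (SE 0.13) or 1.95-fold, with a limma adjusted p of 5.74e-04. The calls of H2-D1, H2-Q7 and B2m for Day 28 against Day 2 were kept with each of the 12 arrays left out in turn.

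H2-T23, which encodes the Qa-1 molecule read by receptors of natural killer cells, measured 0.86, 0.35 and 0.65 on Day 28, against 0.08, -0.31 and -0.36 on Day 2. The days did not overlap, and the difference of 0.81 (SE 0.27, 1.76-fold) did not pass (adjusted p = 0.11 by limma). The spread on Day 10 was the widest, with -0.11, -0.41 and 0.85, of which the last belongs to the array that stood apart. Without that array the same difference of 0.81 had an adjusted p of 0.0156, since all days share 1 estimate of the spread.

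The loading machinery did not pass in any comparison. Tapbp, the tapasin that holds the empty heavy chain beside the transporter, averaged 0.54 ± 0.05 on Day 28 and 0.22 ± 0.04 on Day 2 (SD, n = 3 each), a difference of 0.31 (adjusted p = 0.344 by limma) without overlap. Tap2, one chain of the peptide transporter, had a difference of 0.00 between Day 28 and Day 2, with a range of -0.82 to 0.60 on Day 10. Tap1, the other chain, gave -0.80, -0.48 and 2.13 on Day 2, so that 1 array set its mean. Its Day 28 values were -0.46, -0.95 and -0.99, and the difference of -1.08 from Day 2 (adjusted p = 0.329 by limma) was -0.16 without replicate 3 of Day 2. H2-D1, H2-Q7 and B2m thus passed the test, and no transporter or tapasin gene did. Whether the genes differ in their change was not tested.

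The immunoproteasome subunits replace the constitutive subunits of the proteasome under interferon. Psmb9 (LMP2) rose between Day 28 and Day 2, and Psmb8 (LMP7) and Psmb10 (MECL-1) did not pass. Psmb9 gave -0.48, -0.92 and -1.07 on Day 2, -0.64, -0.56 and -0.35 on Day 5, -0.72, -0.36 and -0.56 on Day 10, with -0.25, -0.13 and -0.22 on Day 28. Day 28 lay above every earlier array, with little spread. Day 28 averaged -0.20 ± 0.06 and Day 2 averaged -0.82 ± 0.31 (SD, n = 3 each), a rise of 0.62 (SE 0.16, 1.54-fold) with a limma adjusted p of 0.041. This call was lost with replicate 2 or 3 of Day 2, or any single array of Day 28, left out, with adjusted p between 0.0111 and 0.165 over all alternatives. Psmb8 measured -0.54, -0.46 and -0.51 on Day 28, against -0.61, -0.80 and -1.02 on Day 2, a difference of 0.31 (adjusted p = 0.393 by limma). Psmb10 had a difference of -0.15 (adjusted p = 0.705 by limma). Psmb9 and Tap1 start from 1 divergent promoter, on the minus and the plus strand, and their windows share 275 bases. Their Day 28 values minus the Day 2 values were 0.62 and, with the Day 2 array named above, -1.08. The 3 constitutive counterparts, Psmb5, Psmb6 and Psmb7, had differences of 0.28, -0.20 and -0.48, and none passed.

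The GTPases of the interferon response act against intracellular pathogens. Ifi47 (IRG-47), an immunity-related GTPase, had the largest rise of all members and was the only member called between Day 28 and Day 10. It measured 1.28, 0.64 and 0.84 on Day 2, 1.10, 1.47 and 1.18 on Day 5, 1.23, 1.57 and 0.99 on Day 10, with 2.38, 2.72 and 2.28 on Day 28. The first 3 days overlapped, and every Day 28 array lay above all of them. Day 28 averaged 2.46 ± 0.23, Day 10 averaged 1.26 ± 0.29 and Day 2 averaged 0.92 ± 0.33 (SD, n = 3 each). The rise was 1.54 (SE 0.20, 2.9-fold) against Day 2, with a limma adjusted p of 3.68e-04, and 1.20 (SE 0.20, 2.29-fold) against Day 10, with an adjusted p of 0.0118. The call against Day 2 was kept in all 21 alternatives, and the call against Day 10 was lost without replicate 1 of Day 10 or replicate 2 of Day 28, with the 6 arrays of those days alone, and with quantile normalization (0.96, adjusted p = 0.0654). The other GTPases of the list stayed close to their Day 2 values on Day 28. Gbp2, a guanylate-binding protein, averaged 1.24 ± 0.20 on Day 28 and 1.08 ± 0.27 on Day 2 (SD, n = 3 each). The Day 28 minus Day 2 differences of Gbp2, Igtp and Irgm1 were 0.16, -0.07 and 0.17, with limma adjusted p between 0.618 and 0.895.

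**Figure D2:**
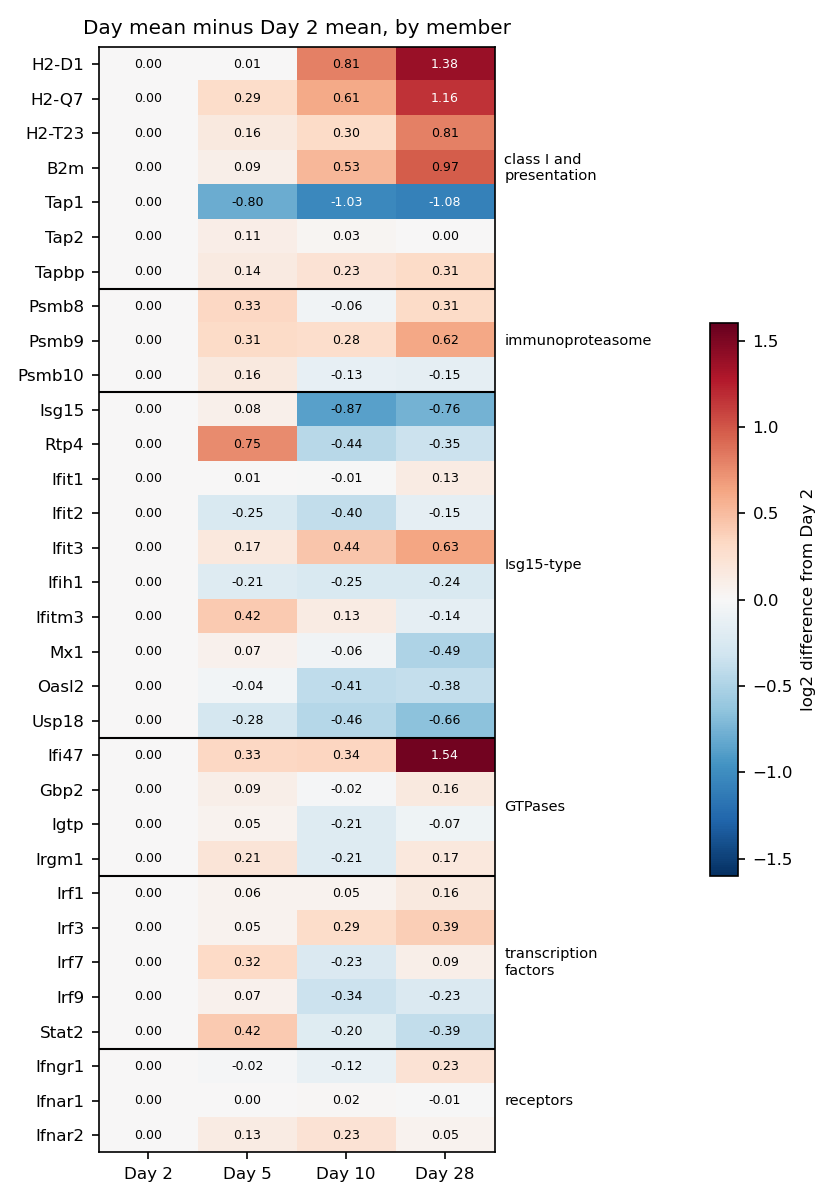
Mean log2 ratio of each day minus the Day 2 mean for the 32 measured members (rows, by role; columns, the 4 days; 3 arrays each), with red above and blue below Day 2. The red at Day 28 lies mainly in H2-D1 (1.38), H2-Q7 (1.16), B2m (0.97), H2-T23 (0.81) and Ifi47 (1.54), and the blue at Day 28 in Isg15 (-0.76), Usp18 (-0.66) and Tap1 (-1.08), the last with 1 Day 2 array far above the others.

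Isg15, a ubiquitin-like protein that is joined to other proteins in the antiviral response, fell while H2-D1 rose. Its values were -0.08, -0.11 and 0.14 on Day 2, 0.23, 0.28 and -0.32 on Day 5, -0.96, -0.81 and -0.88 on Day 10, with -0.75, -0.70 and -0.87 on Day 28. The arrays of Day 10 and Day 28 all lay below those of both earlier days. Isg15 averaged -0.88 ± 0.08 on Day 10 and 0.07 ± 0.33 on Day 5 (SD, n = 3 each), a fall of -0.95 (SE 0.16, 1.93-fold) with a limma adjusted p of 0.0404. Day 28 averaged -0.78 ± 0.09 and Day 2 averaged -0.01 ± 0.14 (SD, n = 3 each), a fall of -0.76 (SE 0.16, 1.7-fold) with a limma adjusted p of 0.0128. The fall between Day 10 and Day 5 kept its call in 8 of 21 alternatives, with differences between -1.14 and -0.84. Its adjusted p by limma ran from 0.00804 to 0.299. The call was kept in 3 of the 12 fits with 1 array left out, and was lost without both arrays that stood apart. The fall between Day 28 and Day 2 kept its call in 19 of 21. That call was lost without replicate 3 of Day 2 (adjusted p = 0.0645) and without replicate 3 of Day 28 (0.0643).

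Rtp4, a receptor transporter protein induced by interferon, was highest on Day 5 and low from Day 10 on. It measured -0.76, -0.64 and -0.50 on Day 2, 0.35, -0.02 and 0.01 on Day 5, -1.25, -1.29 and -0.69 on Day 10, with -0.99, -0.92 and -1.04 on Day 28. All Day 5 arrays lay above those of every other day. Day 10 averaged -1.08 ± 0.33 and Day 5 averaged 0.11 ± 0.21 (SD, n = 3 each), a fall of -1.19 (SE 0.17, 2.28-fold) with a limma adjusted p of 0.0171. Day 5 stood 0.75 (SE 0.17, 1.68-fold) above Day 2, which did not pass (adjusted p = 0.101 by limma). It did pass without replicate 3 of Day 10 (0.75, adjusted p = 0.0228) and without both arrays that stood apart (0.82, adjusted p = 0.0256). The fall was lost without replicate 1 of Day 5 and without replicate 1 or 2 of Day 10. Day 28 lay -0.35 below Day 2 without overlap, which did not pass (adjusted p = 0.308 by limma).

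The other 8 Isg15-type genes did not pass in any comparison. Mx1, a GTPase that blocks influenza virus, measured -0.50, -0.63 and -0.54 on Day 28, against -0.18, 0.21 and -0.23 on Day 2, with no overlap and a difference of -0.49 (adjusted p = 0.0742 by limma). Oasl2, of the oligoadenylate synthetase family, averaged -0.82 ± 0.15 on Day 28 and -0.44 ± 0.16 on Day 2 (SD, n = 3 each), a difference of -0.38 (adjusted p = 0.172 by limma). Usp18, which removes Isg15 from proteins, had a difference of -0.66 with 1 probe and -0.40 with the other, and the adjusted p was 0.184 and 0.517 by limma. Ifit3, of the family that binds viral RNA, ran the other way. It measured 1.00, 1.38 and 1.15 on Day 28, against 0.63, 0.52 and 0.48 on Day 2, with no overlap and a difference of 0.63 (adjusted p = 0.109 by limma). Its relatives Ifit1 and Ifit2 had differences of 0.13 and -0.15, the viral RNA sensor Ifih1 (MDA5) of -0.24, and the membrane protein Ifitm3, which hinders virus entry, of -0.14.

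Among the transcription factors, Irf7, the regulator that amplifies type I interferon genes, measured -0.91, -1.17 and -0.80 on Day 10, against -0.56, -0.20 and -0.47 on Day 5. The days did not overlap, and the difference of -0.55 (SE 0.14) did not pass (adjusted p = 0.2 by limma). Stat2, which carries the interferon signal with Irf9, gave -0.03, -0.27 and -0.06 on Day 10, against 0.65, 0.71 and 0.13 on Day 5, a difference of -0.62 (SE 0.19, adjusted p = 0.316 by limma). Irf9, the DNA-binding part of that complex, averaged -0.27 ± 0.14 on Day 10 and 0.14 ± 0.15 on Day 5 (SD, n = 3 each), a difference of -0.42 (adjusted p = 0.371 by limma). Irf3, which is activated by viral sensors, averaged 0.41 ± 0.08 on Day 28 and 0.02 ± 0.10 on Day 2 (SD, n = 3 each), a difference of 0.39 (adjusted p = 0.0846 by limma). Irf1, the factor of the interferon gamma response, stayed within 0.16 of its Day 2 mean. The median of the 5 factors was -0.42 between Day 10 and Day 5, against -0.01 over all rows. It was 0.07 for Day 5 against Day 2, 0.11 for Day 28 against Day 10 and 0.09 for Day 28 against Day 2. The Day 28 minus Day 2 differences of Irf7, Stat2 and Irf9 were 0.09, -0.39 and -0.23, and none passed.

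No receptor chain passed in any comparison. The largest difference among the 3 was that of Ifngr1, the ligand-binding chain for interferon gamma, with -0.14 ± 0.08 on Day 28 and -0.50 ± 0.32 on Day 10 (SD, n = 3 each) and a difference of 0.35 (adjusted p = 0.47 by limma). Ifnar1 averaged between 0.26 and 0.29 on all 4 days. The median difference of the 3 chains lay between -0.03 and 0.05 in all 4 comparisons.

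Set side by side, the class I genes and the Isg15-type genes differed in where their arrays lay. The median log2 ratio of the 7 class I genes was between -0.56 and -0.36 on the arrays of Day 2, -0.62 and -0.15 on Day 5, -0.56 and 0.01 on Day 10, and on Day 28 from -0.38 to 0.13. The median of the 10 Isg15-type genes was between -0.13 and -0.11 on Day 2, -0.16 and 0.03 on Day 5, -0.36 and -0.24 on Day 10, and on Day 28 from -0.52 to -0.46. All 3 arrays of Day 28 lay below those of Day 10 for the Isg15-type genes, and those of Day 10 lay below those of both earlier days, whereas the class I medians overlapped between the days. Such a median runs over ratios of different genes and need not move as the genes do: from Day 10 to Day 28, 7 of the 10 Isg15-type genes had a difference above 0.

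The median difference of the class I genes was 0.81 between Day 28 and Day 2, that of the Isg15-type genes was -0.29, and that of all rows was -0.01. The class I value is that of H2-T23, the middle gene of 7, which did not pass (adjusted p = 0.11 by limma). In Day 28 against Day 10 the medians were 0.43, 0.06 and 0.01 in the same order. Between Day 10 and Day 5 they were 0.14, -0.16 and -0.01, and between Day 5 and Day 2 they were 0.11, 0.04 and 0.00. For Day 28 against Day 2, 5 of 7 class I genes and 2 of 10 Isg15-type genes had a difference above 0, against 48.1% of all rows. For Day 10 against Day 5, the counts were 5 of 7 and 1 of 10, against 47.9% of all rows. The genes were listed with earlier results of these data known, and the difference between the classes was not tested.

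**Figure D3:**
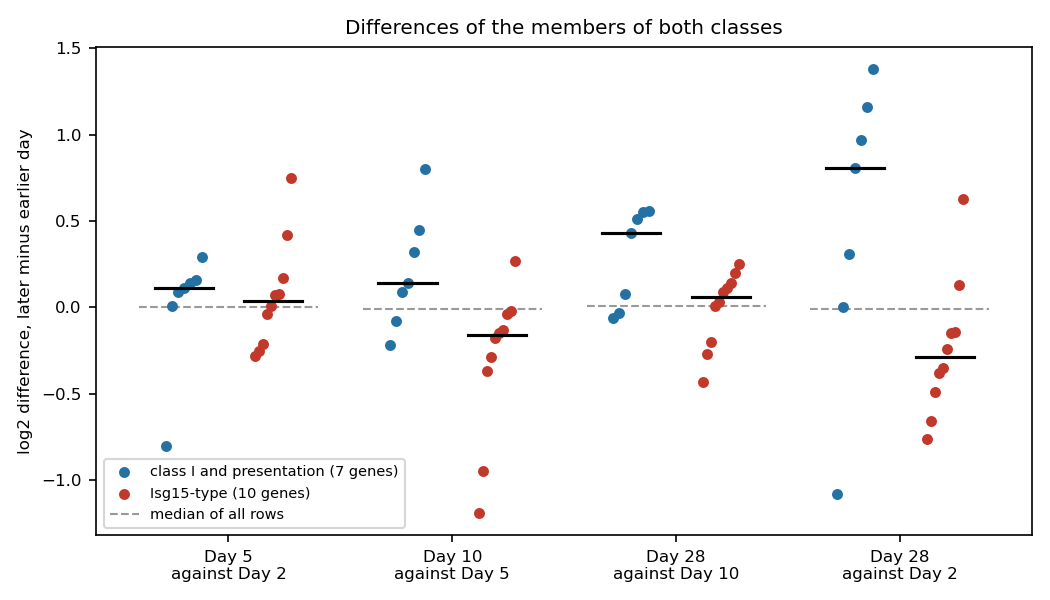
Log2 difference of each gene (vertical axis, later day minus earlier) for the 7 class I and presentation genes in blue and the 10 Isg15-type genes in red, in the 4 comparisons of days (horizontal axis). Black bars are the medians of the genes and dashed lines the median of all 17504 rows; the medians for Day 28 against Day 2 are 0.81 and -0.29, with Tap1 at -1.08 and Ifit3 at 0.63 on the other side.

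Genes whose arrays did not overlap between days were also counted. Between Day 28 and Day 2, all arrays of Day 28 were higher for 10 of the 32 members (31.2%), against 14.2% of all rows. These were H2-D1, H2-Q7, H2-T23, B2m, Tapbp, Psmb8, Psmb9, Ifit3, Ifi47 and Irf3. All arrays of Day 28 were lower for 5 members (15.6%), close to the 14.4% of all rows. These 5 were Isg15, Rtp4, Ifitm3, Mx1 and Oasl2, all listed as Isg15-type, and only Isg15 passed the test for these days. Between Day 10 and Day 5, all arrays of Day 10 were lower for 8 members (25.0%), against 6.68% of all rows (Isg15, Rtp4, Oasl2, Igtp, Irgm1, Irf7, Irf9 and Stat2). They were higher for 3 members (H2-D1, B2m and Irf3), or 9.38%, against 6.11% of all rows. Against Day 10, the arrays of Day 28 were higher for 10 members (31.2%), against 9.74% of all rows, and lower for 2 (Ifitm3 and Mx1), or 6.25%, against 8.51%. Between Day 5 and Day 2 they were higher for 4 members (Tapbp, Rtp4, Ifitm3 and Irf7), or 12.5%, against 7.46% of all rows, and lower for 0, against 7.63%.

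The day of the highest mean was Day 28 for 5 of 7 class I genes and Day 2 or Day 5 for 8 of 10 Isg15-type genes. The day of the lowest mean was Day 2 for 5 of 7 class I genes, and Day 10 or Day 28 for 9 of 10 Isg15-type genes. Of all rows, 25.7% were lowest on Day 2, 23.9% on Day 10 and 28.2% on Day 28. No member had its lowest mean on Day 5, against 22.2% of all rows, and 12 of 32 members (37.5%) had their highest mean there, against 23.9%. Day 10 was the highest day for 2 members and the lowest for 13 (40.6%), against 19.3% and 23.9% of all rows. Many of these differences between means were smaller than the spread between arrays.

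**Figure D4:**
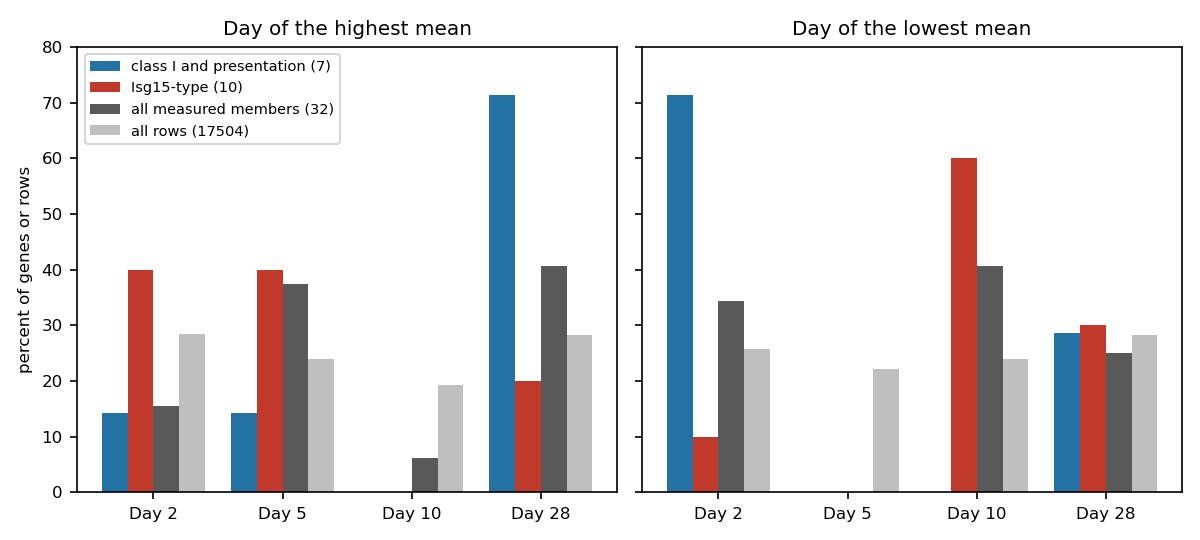
Percent of genes or rows (vertical axis) whose highest mean (left) or lowest mean (right) fell on each day (horizontal axis), for the class I genes, the Isg15-type genes, all measured members and all rows. Class I genes fall mainly on Day 28 for the highest mean (71.4%) and Day 2 for the lowest (71.4%), and Isg15-type genes on Day 10 for the lowest (60%). The shares of all rows are 28.3%, 25.7% and 23.9% in the same order.

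Beyond the members, 41 other interferon-stimulated genes were measured, of 59 listed. Of these 3 rose between Day 28 and Day 2, or 7.32%, against 3.68% of all rows, and none fell, against 2.01%. Ifi30, a lysosomal thiol reductase of antigen processing, averaged -0.52 ± 0.07 on Day 28 and -1.24 ± 0.18 on Day 2 (SD, n = 3 each), a rise of 0.71 with a limma adjusted p of 0.0227. Ccl5, a chemokine that attracts T cells, averaged -0.65 ± 0.20 on Day 28 and -1.45 ± 0.24 on Day 2 (SD, n = 3 each), a rise of 0.80 with a limma adjusted p of 0.0213. Lgals3bp, a secreted glycoprotein, rose by 0.57 (adjusted p = 0.0484 by limma). The median of the 41 genes was -0.08 between Day 28 and Day 2 and -0.13 between Day 10 and Day 5, when 9 of them lay above 0. The F test called 2 of the 41, or 4.88%, against 5.32% of all rows. They were Ccl5 and Eif2ak2 (PKR), a kinase that stops translation on viral RNA, the second with a mean of -0.64 on Day 10 and 0.02 on Day 5 and an adjusted p of 0.0471 by limma.

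None of 17 other measured class I and loading genes passed in any comparison. Over all rows, 5.69% were called between Day 28 and Day 2, and 0.149% to 0.84% in the other comparisons. At such shares a list of this size can hold no call. The median difference of the 17 genes between Day 28 and Day 2 was -0.10. All arrays of Day 28 were lower than those of Day 2 for 5 of the 17 (29.4%), against 14.4% of all rows. These were Cd1d1, Calr, Canx (by its first probe), Psme1 and Psme2. They were higher for 0, against 14.2% of all rows. The 17 genes included the heavy chain H2-Q4, with -0.81 on Day 28 and -0.92 on Day 2, and the chaperones Calr and Canx. Nor did any of 10 class II presentation genes pass, against the same shares of all rows, and their median was 0.00. Class II is the pathway of professional antigen-presenting cells. Of 23 other signalling genes 1 passed the F test by its first probe, or 4.35%, against 5.32% of all rows. Socs3, a feedback inhibitor of cytokine signalling, averaged -0.26 on Day 2, -0.95 on Day 5, -0.75 on Day 10, with -0.34 on Day 28 (adjusted p = 0.0282 by limma). Stat3 passed with 1 probe (adjusted p = 0.0265) and not with the other (0.0724).

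Class I genes and Ccl5 are also high in blood cells, so markers of those cells were set beside them. Against 5.69% of all rows called between Day 28 and Day 2, none of the 13 markers measured, of 18 listed, passed in any comparison. Their median log2 ratio per array was -1.68 to -1.04 on Day 28 and -1.36 to -0.98 on Day 2, and the pan-leukocyte gene Ptprc was -2.46 to -3.95 on Day 28, against -3.04 to -4.51 on Day 2. The endothelial markers had medians of -0.04 to 0.05 on Day 28 and 0.15 to 0.29 on Day 2. Of these markers 0 of 5 were called, against the same share of all rows. The mesenchymal and osteoblast markers had medians of 2.41 to 2.70 on Day 28 and 1.03 to 1.68 on Day 2. On Day 5 these markers already lay at 1.69 to 2.05, above Day 2. The class I medians of Day 5 (-0.62 to -0.15) overlapped those of Day 2 (-0.56 to -0.36). The part of these markers in the result was not tested.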

How the data were processed

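RNA of MC3T3-E1 cells was measured on 12 two-colour arrays, 3 for each of 4 days. The values are log2 ratios of cells and a common reference, as deposited by the authors in 1 table. Per the submitters' processing notes R 2.13.0 was used. How background was corrected and arrays were normalized, which base the logarithm has and which channel is on top is not given in the sources used here. Column medians lay within 0.0132 of 0, and no value was missing. Spot intensities were not analysed here, weak spots are therefore not marked as such, and the number of arrays limits the precision.

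The platform annotation gave 1 gene for 14010 of 17664 rows, several for 13 and none for 3641; RefSeq identifiers matched for 13908. Spots of 10 genes printed 17 times were averaged, which left 17504 rows. Benjamini-Hochberg adjustment ran over all of them. Each array was centred on its median, and limma 3.58.1 in R 4.3.3 (lmFit, eBayes) fitted 1 mean per day (residual degrees of freedom 8, prior 5.23). Each day was compared with the day sampled before it, Day 28 also with Day 2, and an F test covered any change. The fit was tested on simulated data. Members that passed a test, Isg15, H2-D1 and B2m are given array by array, and other members by counts and their largest differences, some of them also array by array, chosen after their values were seen. A gene with several probes is represented by the lowest probe number. The members and lists were chosen with earlier results of these data known. Alternatives were quantile normalization, equal spread of arrays, rows with 1 gene only, averaged probes, array weights, robust moderation, the replicate number as a block, the 6 arrays compared, and leaving out arrays. Promoter sequences are from RefSeq, assembly GRCm38.p6.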

Additional observations from a re-analysis of the deposited data

How the results depend on the processing

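Between Day 28 and Day 2, H2-D1, H2-Q7, B2m and Ifi47 kept their calls in all 21 alternatives, and the number of members called stayed between 4 and 7 with 1 array left out. The F test called 5 to 7 members with 1 array left out. Of 6 members called by it, only H2-Q7 lost the call, without replicate 3 of Day 28 (adjusted p = 0.0533 by limma). Between Day 10 and Day 5, where 2 members were called, the count was 1 with quantile normalization, 0 with the 6 arrays alone, 1 without both arrays that stood apart, and 0 to 2 with 1 array left out. For Day 28 against Day 10, where 1 was called, the count was 0 with quantile normalization, 2 with array weights, 0 with the 6 arrays alone, 2 without both arrays that stood apart, and 0 to 1 with 1 array left out. For Day 5 against Day 2, leaving out both of those arrays gave 1, and the count was 0 to 1 with 1 array left out. The set without both arrays was chosen after seeing the data. The causes were not tested, other than that the 6 arrays alone and the sets with arrays left out hold fewer samples. The class I median lay between 0.70 and 0.95 for Day 28 against Day 2, 0.25 and 0.51 for Day 28 against Day 10, 0.06 and 0.40 for Day 10 against Day 5 (0.40 without replicate 2 of Day 10), and 0.01 and 0.18 for Day 5 against Day 2, with 1 array left out. The Isg15-type median lay between -0.36 and -0.25, 0.00 and 0.11, -0.21 and -0.10, and -0.03 and 0.04 in the same order, and leaving out both arrays that stood apart gave -0.03 for Day 5 against Day 2. A class I median is the value of the middle gene of 7, for Day 28 against Day 2 that of H2-T23 in the main fit. No difference past the threshold turned its sign in any alternative.

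Whether the replicate numbers pair the samples is not stated in the labels. Deviations from the day means correlated at -0.27 to 0.20 for arrays with the same number. Arrays with different numbers on different days correlated at -0.33 to 0.39, and 5 of 12 arrays correlated best with their own number. No pairing was visible in these values, but with so few arrays per day they cannot decide whether the samples were paired. With the replicate block, 1 member was called between Day 10 and Day 5 (Rtp4), Psmb9 lost its call between Day 28 and Day 2 (adjusted p = 0.0767), and Isg15 lost its call between Day 10 and Day 5 (adjusted p = 0.066).

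Over all rows, the 59 calls between Day 5 and Day 2 were 30 with the replicate block, 37 with the 6 arrays and 231 without both arrays that stood apart. The 26 between Day 10 and Day 5 were 17 with averaged probes, 13 with the replicate block, 0 with the 6 arrays and 52 without both. The 147 between Day 28 and Day 10 were 90 with quantile normalization, 420 with array weights, 65 with the 6 arrays and 261 without both. The 996 between Day 28 and Day 2 were 1702 with array weights, 1549 with the 6 arrays and 1704 without both, and the 931 of the F test were 1655 with array weights and 1764 without both.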
